A study of Saccharomyces cerevisiae with 16 samples.

Results

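Nucleotides 1451 to 2420 of 25S rRNA, the large RNA of the large ribosomal subunit of yeast, were described by the reads that ended at each of them in PSI-seq, a sequencing assay for pseudouridine. The segment was taken by position and holds 970 of the 3396 nucleotides of 25S rRNA (28.6%). In the first listed rDNA copy it runs from position 452763 to position 453732 of chromosome 12 (sacCer3), on the reverse strand within RDN25-1, and the second listed copy has the same counts. Of the 43 pseudouridines of 18S and 25S rRNA that the study marked as known, 12 lie in the segment, at nt 2129, 2133, 2191, 2258, 2260, 2264, 2266, 2314, 2340, 2349, 2351 and 2416. A further 21 nucleotides lie 1 nt from a marked one, and the other 937 are called unmarked here, which says nothing of whether they carry another modification. The marked nucleotides were taken from the known sites and not from these reads.

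Pseudouridine is an isomer of uridine in which the base is joined to the sugar through carbon instead of nitrogen, and in rRNA it is made by the H/ACA ribonucleoproteins, whose guide snoRNAs pair with the sequence on both sides of the target and whose catalytic subunit in yeast is Cbf5. CMCT forms an adduct with uridine, guanosine and pseudouridine, and alkali removes it from all but pseudouridine, where it then stops reverse transcriptase. The 3′ part of the segment belongs to domain IV of the large subunit RNA, which faces the small subunit and holds helix 69, a hairpin that bridges both subunits next to the decoding centre.

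The strain was BY4741, a haploid laboratory strain of Saccharomyces cerevisiae, in every library. RNA came from log phase cells at an optical density of 0.8, in a culture later heat shocked (pre-heat shock log phase) and in a culture later grown on (pre-stationary log phase), from cells of the first of these after 30 min at 45 °C (heat shock), and from cells of the second at an optical density of 4 (stationary phase). The labels name this density OD260 and the methods OD600. In each of these 4 experiments, natural RNA and RNA transcribed in vitro (IVT), which carries no modification, were each divided into a CMCT-treated (+CMCT) and a mock-treated (−CMCT) part, which gives 16 libraries. Log phase thus has 2 libraries of each kind, from separate cultures, and heat shock and stationary phase have 1 of each kind. The natural RNA was purified repeatedly over oligo(dT), so the rRNA reads are residual, and IVT 18S and 25S rRNA made from T7 templates was added to the IVT RNA. Where 4 values are given below, they stand in the order pre-heat shock log phase, pre-stationary log phase, heat shock and stationary phase. The natural libraries held 42138 to 171009 reads in the segment, between 12.6% and 17.0% of their reads on 18S and 25S rRNA. The IVT libraries held 493 to 3843, between 3.60% and 6.77% of theirs, and left 241 to 701 of the 970 nucleotides without a read. Every statement on IVT RNA rests on these few reads, while between 0 and 9 nucleotides of the segment had no read in a natural library.

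The marked nucleotides are not spread evenly over the segment. The first 678 nucleotides (69.9%) hold none, and all 12 lie within a stretch of 288 nt that ends 4 nt before the 3′ end of the segment. Pseudouridines within 10 nt of each other were taken as a run, which gave a pair at nt 2129 and 2133, the helix 69 run of nt 2258, 2260, 2264 and 2266, a run of nt 2340, 2349 and 2351, and the single sites nt 2191, 2314 and 2416.

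Reads at the marked nucleotides rose after CMCT in natural RNA at every one of the 12. Ratios of +CMCT to −CMCT reads, with 1 read added to each count, are given as log2 values, and a centred ratio is this value less its median over the unmarked nucleotides of 18S and 25S rRNA in the same experiment, which takes out the depth of the library pair. The median centred ratio of the 12 was 4.16, 3.26, 3.74 and 2.10, against medians of −0.19, 0.05, −0.16 and 0.08 for the 937 unmarked nucleotides of the segment.

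**Figure D1:**
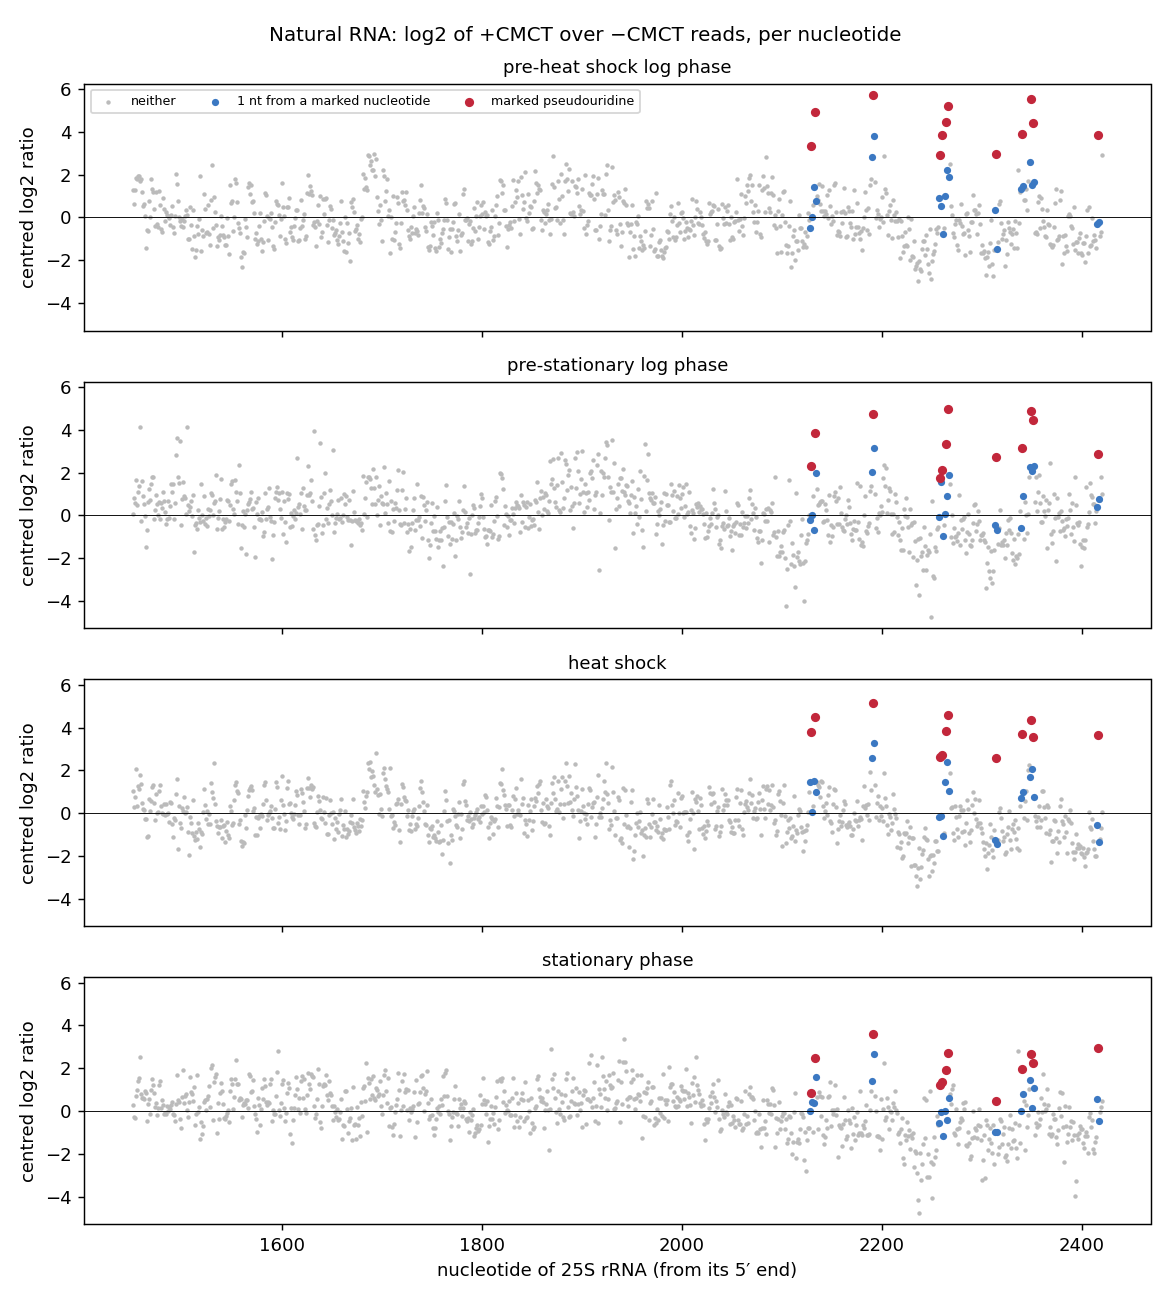
Each panel plots, for 1 experiment, the centred log2 ratio of +CMCT to −CMCT reads in natural RNA (vertical axis) at each nucleotide of the segment (horizontal axis, nt of 25S rRNA). Red points are the 12 marked pseudouridines, blue points the nucleotides 1 nt away and grey points the 937 others. The red points stand apart from the grey ones in pre-heat shock log phase and heat shock, where 11 and 9 of the 12 exceed the highest grey point, and mix with them in stationary phase, where 1 does.

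The single sites differed widely among themselves. Nt 2191, guided by snR32, had 1719, 1012, 2529 and 971 natural +CMCT reads, against 40, 25, 82 and 20 natural −CMCT reads. No +CMCT library came near a −CMCT library there, and its ratio ranked first of all 970 nucleotides in 3 experiments and at rank 3 in pre-stationary log phase. Nt 2314, guided by snR86, had 292, 125, 622 and 108 natural +CMCT reads, against 46, 12, 118 and 19 natural −CMCT reads. It had the fewest +CMCT reads of the 12 in every experiment, and its ratio took rank 12, 27, 14 and 337. Nt 2416, guided by snR11, had 951, 695, 1512 and 652 natural +CMCT reads, against 82, 65, 136 and 21 natural −CMCT reads, and took rank 9, 23, 8 and 3, the only one of the 12 whose centred ratio in stationary phase lay within the range of the log phase values.

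In the pair at nt 2129 and 2133, both guided by snR3, the 3′ member had the more +CMCT reads. Nt 2129 had 671, 168, 1115 and 140 natural +CMCT reads, against 84, 23, 91 and 19 natural −CMCT reads. Nt 2133 had 1804, 589, 2724 and 512 natural +CMCT reads, against 75, 27, 139 and 23 natural −CMCT reads. The 2 nucleotides thus had like counts without CMCT and differed after it.

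Helix 69 holds 4 pseudouridines within 9 nt, the first 2 guided by snR191, nt 2264 by snR3 and nt 2266 by snR84. Nt 2258 had 1644, 2944, 2829 and 1950 natural +CMCT reads, against 274, 616, 518 and 218 natural −CMCT reads. It had the most −CMCT reads of the 12 in every experiment and took the last place among them in pre-heat shock log phase (rank 15) and pre-stationary log phase (rank 90). Nt 2260 had 645, 285, 863 and 219 natural +CMCT reads, against 55, 45, 150 and 21 natural −CMCT reads. Nt 2264 had 975, 795, 1329 and 477 natural +CMCT reads, against 55, 53, 104 and 32 natural −CMCT reads. Its ratio lay between those of its neighbours in the run, with rank 5, 14, 5 and 34. Nt 2266 had 1583, 1248, 2189 and 660 natural +CMCT reads, against 53, 27, 103 and 25 natural −CMCT reads, and with rank 3, 1, 2 and 7 was the most enriched of the 4 in every experiment.

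In the run from nt 2340 to 2351, the first is guided by snR9 and the other two by snR82. Nt 2340 had 1757, 2956, 2420 and 1751 natural +CMCT reads, against 149, 227, 216 and 115 natural −CMCT reads. Nt 2349 had 923, 710, 1194 and 420 natural +CMCT reads, against 24, 16, 66 and 16 natural −CMCT reads. Nt 2349 thus had fewer reads than nt 2340 in all 8 natural libraries but the higher ratio in all 4 experiments. Nt 2351 had 1490, 1501, 1820 and 693 natural +CMCT reads, against 86, 47, 175 and 37 natural −CMCT reads.

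These ratios were tested with edgeR's quasi-likelihood test on the natural libraries of both log phase experiments and heat shock, with the experiment as a block. All 12 marked nucleotides were called at an adjusted p under 0.05, where 3803 of the 425992 positions tested over the genome (0.893%) were called as higher after CMCT. The fitted log2 change was lowest at nt 2258 (1.84, SE 0.31, adjusted p = 8.5e-06) and highest at nt 2191 (4.64, SE 0.36, adjusted p = 2.2e-32), with a median of 3.15 and a median SE of 0.34. Nt 2349 and 2266 followed nt 2191, each with 4.34 (SE 0.37 and 0.36). Of the 937 unmarked nucleotides, 16 were called as higher and 184 as lower after CMCT, and their median was −0.70. Lower calls were 1408 of all positions tested (0.331%), but 936 of the 5067 unmarked nucleotides of the whole rRNA. The segment was thus close to the whole rRNA in lower calls. In pre-heat shock log phase, pre-stationary log phase and heat shock, rRNA held 11.5%, 9.14% and 9.35% of the natural −CMCT reads. With CMCT it held 8.67%, 5.65% and 7.06%. The part of this fall in the lower calls was not tested. The test takes 3 experiments as replicates although pre-heat shock log phase and heat shock share a culture, and the bias-adjusted form of the same test called 0 of the 12. Without pre-heat shock log phase nt 2258 and 2260 lost their calls (adjusted p = 0.505 and 0.111), and without heat shock nt 2258 did (adjusted p = 0.133).

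The rank of the 12 within the segment depended on the experiment. Among the 12 highest ratios of the segment were 11, 5, 10 and 4 marked nucleotides, and the lowest of them took rank 15, 90, 14 and 337. The place of the missing ones went to nt 2192, next to nt 2191, in pre-heat shock log phase, to nt 2192 and nt 1694 in heat shock, to 7 unmarked nucleotides in pre-stationary log phase, and to 7 unmarked nucleotides and nt 2192 in stationary phase. The study's score, which regresses the log of the +CMCT reads at every listed position on that of its −CMCT reads and divides the residual by the standard deviation of all residuals, exceeded the highest score of an unmarked rRNA nucleotide at 11, 4, 10 and 0 of the 12. In heat shock the 2 below that threshold were nt 2260 and 2314, and in pre-heat shock log phase the 1 below it was nt 2314.

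Across the 12, the order of the ratios was shared between experiments. Pearson's r of the natural log2 ratios was 0.91 between both log phase experiments, 0.88 between heat shock and pre-heat shock log phase and 0.75 between stationary phase and pre-stationary log phase (n = 12 nucleotides, which share the library and its depth). Over the 937 unmarked nucleotides it was 0.52, 0.77 and 0.45 for the same pairs. These are descriptions across nucleotides, which are not independent replicates.

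**Figure D2:**
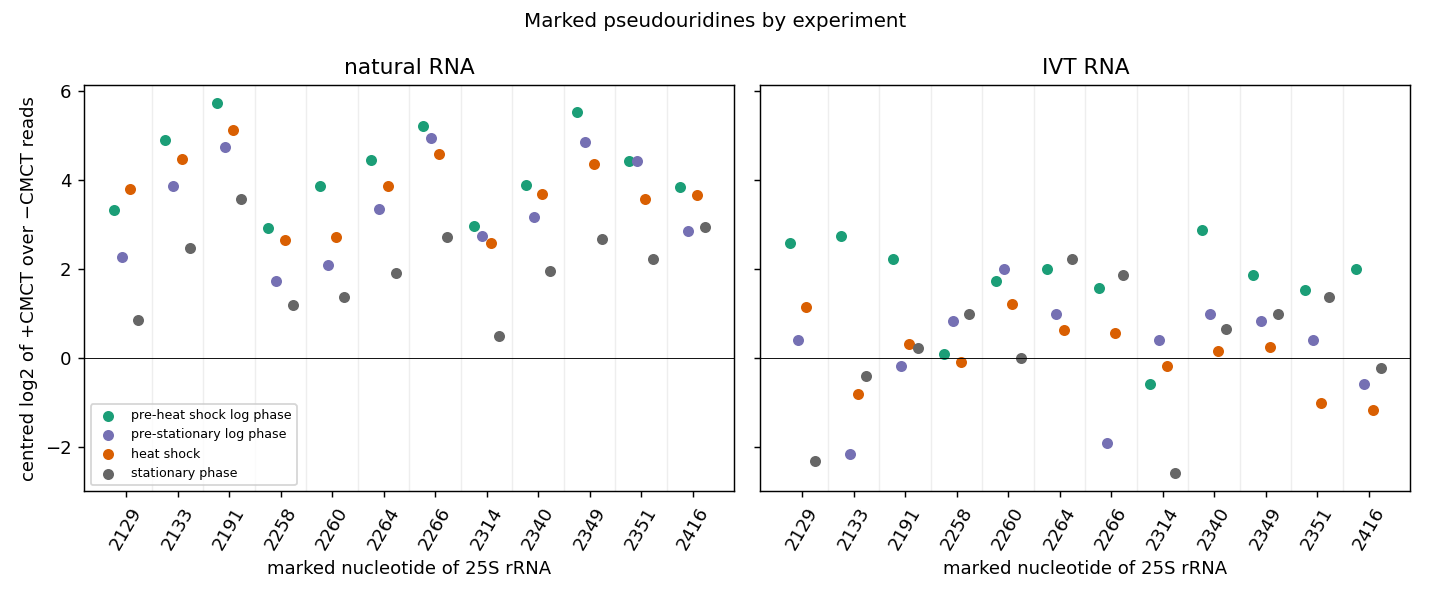
The centred log2 ratio of +CMCT to −CMCT reads (vertical axis) is plotted for each of the 12 marked nucleotides (horizontal axis) in natural RNA (left) and IVT RNA (right), with a point for each of the 4 experiments. In natural RNA all points lie above 0, between 0.49 and 5.73, with stationary phase lowest at 11 of the 12 nucleotides, while in IVT RNA points lie on both sides of 0.

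The share of segment reads that ended at marked nucleotides summarises the same contrast by library. It was 22.2%, 9.48%, 14.8% and 5.0% in the natural +CMCT libraries, against 1.45%, 1.15%, 1.31% and 1.34% in the natural −CMCT libraries, while the 12 make up 1.24% of the nucleotides. The mean was 12.9% ± 7.39 with CMCT and 1.31% ± 0.125 without it (SD, n = 4 each), and the groups did not overlap (two-sided exact permutation test, p = 0.0286, the smallest that 4 against 4 can give, adjusted to 0.0857 over 6 tests). With the 12 summed, the natural −CMCT libraries thus sat close to the share of nucleotides. Single sites did not, since nt 2258 alone gave 26.8%, 52.1%, 27.3% and 38.5% of these −CMCT reads on marked nucleotides. The spread among the natural +CMCT libraries was several times larger than among the natural −CMCT libraries. In IVT RNA the share was 7.60%, 2.88%, 3.25% and 3.06% with CMCT and 2.64%, 2.32%, 3.85% and 2.03% without it, and the groups overlapped (two-sided exact permutation test, p = 0.257, the same after adjustment). The natural +CMCT libraries overlapped the IVT +CMCT libraries (12.9% ± 7.39 against 4.20% ± 2.27, SD, n = 4 each, two-sided exact permutation test, p = 0.0571, adjusted to 0.114). Without CMCT the share was lower in natural than in IVT RNA with no overlap (1.31% ± 0.125 against 2.71% ± 0.797, SD, n = 4 each, two-sided exact permutation test, p = 0.0286, adjusted to 0.0857). The reads were also spread unevenly along the segment. Nt 2179 to 2420, which hold 10 of the 12, took 71.4%, 42.1%, 48.4% and 28.1% of the segment reads in the IVT −CMCT libraries. In the natural −CMCT libraries they took 20.1%, 21.4%, 19.4% and 22.0%. In the IVT +CMCT libraries it was 42.4%, 43.9%, 53.2% and 20.4%. The part of this coverage in the differences between natural and IVT RNA was not tested. All these permutation tests took the libraries as unpaired, although each experiment gave 1 library to each group. The 4 experiments also differ in growth condition and share cultures, so they are not plain replicates.

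**Figure D3:**
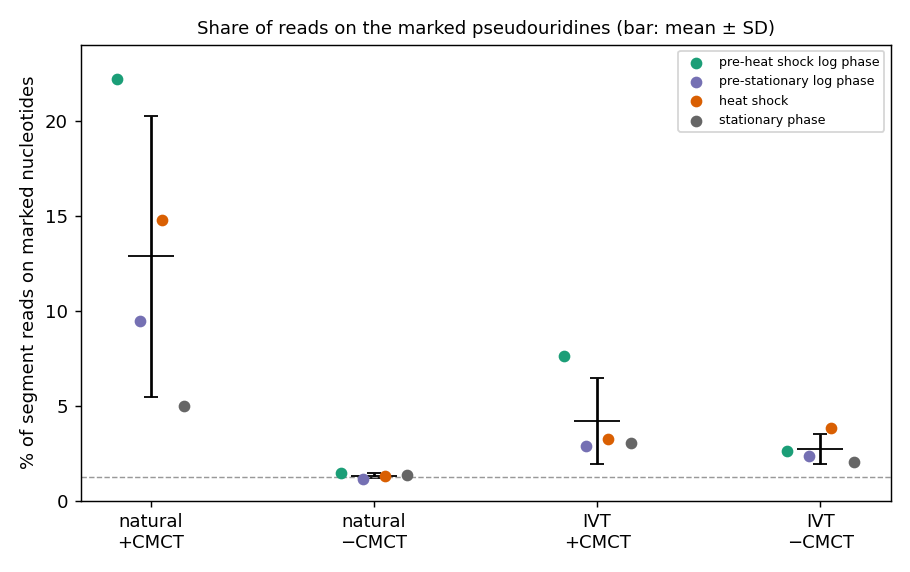
Points give the percentage of segment reads that ended at the 12 marked nucleotides (vertical axis) in each of the 16 libraries, by RNA and treatment (horizontal axis), in colours for the 4 experiments. Black marks are the mean ± SD of 4 libraries, and the dashed line is the 1.24% of nucleotides that are marked. The natural +CMCT libraries lie between 5.0% and 22.2%, all above the natural −CMCT libraries.

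In IVT RNA the same nucleotides had few reads with or without CMCT, in libraries of 493 to 3843 segment reads. Their share of these reads, 2.03% to 7.60%, lay above the 1.24% of nucleotides that they make up. Reads at the 12 summed to 104, 57, 125 and 101 in the IVT +CMCT libraries, against 13, 26, 48 and 61 in the IVT −CMCT libraries. edgeR called 0 of the 12 in IVT RNA, where 8 of 338262 positions tested (0.00237%) were called as higher, and 0 had an unadjusted p under 0.05, and DESeq2 called 0 of them as well. The fitted log2 change was above 0 at 11 of the 12, with a median of 0.77 and a median SE of 1.26, against 0.34 in natural RNA, so a change of the size seen at nt 2258 was not detectable at this depth. At nt 2266, IVT reads were 8, 3, 9 and 10 with CMCT and 1, 9, 2 and 2 without it, and at nt 2191 they were 13, 3, 13 and 6 with CMCT and 1, 2, 4 and 5 without it.

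The natural and IVT ratios were set against each other in a single fit over the 12 libraries of both log phase experiments and heat shock, with each RNA of each experiment as a block. Of the 12 marked nucleotides 1 was called, nt 2266, where the ratio in natural RNA exceeded that in IVT RNA by a log2 of 4.34 (SE 0.87, adjusted p = 0.0247), against 8 of 697226 positions (0.00115%) called as higher, 35 (0.00502%) as lower and 0.00617% in either direction. Nt 2133 (3.77, SE 0.92) and nt 2191 (3.59, SE 0.90) followed with adjusted p-values of 0.209 and 0.264. The difference was above 0 at 11 of the 12, with a median of 2.35 and a median SE of 0.96, and 8 had an unadjusted p under 0.05. The exception was nt 2129, where the IVT −CMCT libraries of these 3 experiments had 0 reads and the fitted value of −2.65 (SE 1.57) is no bound. Without pre-stationary log phase the difference at nt 2266 was 2.61 (SE 1.15, adjusted p = 1) and the call was lost. It was also lost, at differences of 4.96 and 4.32, without heat shock (adjusted p = 0.181) and with DESeq2 (adjusted p = 0.507), while in a fit of 18S and 25S nucleotides alone nt 2133, 2191 and 2351 were called besides it.

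Within the runs, the 3′ member of neighbouring sites usually had the higher ratio. The log2 ratio of nt 2133 exceeded that of nt 2129 by 0.68 to 1.60 over the 4 experiments, that of nt 2264 exceeded that of nt 2260 by 0.53 to 1.25, and that of nt 2266 exceeded that of nt 2264 by 0.73 to 1.60. The difference between nt 2260 and nt 2258 had the same sign in 4 of 4 experiments but was small, from 0.07 to 0.95, and that between nt 2349 and nt 2340, which lie 9 nt apart, was 0.68 to 1.69. The exception was the last pair, where nt 2351 lay below nt 2349 in 4 of 4 experiments, by 0.42 to 1.11. Counts and ratios did not rank the sites alike. Nt 2260 had only 0.0968 to 0.392 times the +CMCT reads of nt 2258 and nt 2349 only 0.240 to 0.525 times those of nt 2340, although their ratios were higher, while nt 2351 had 1.52 to 2.11 times the +CMCT reads of nt 2349 with the lower ratio.

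**Figure D4:**
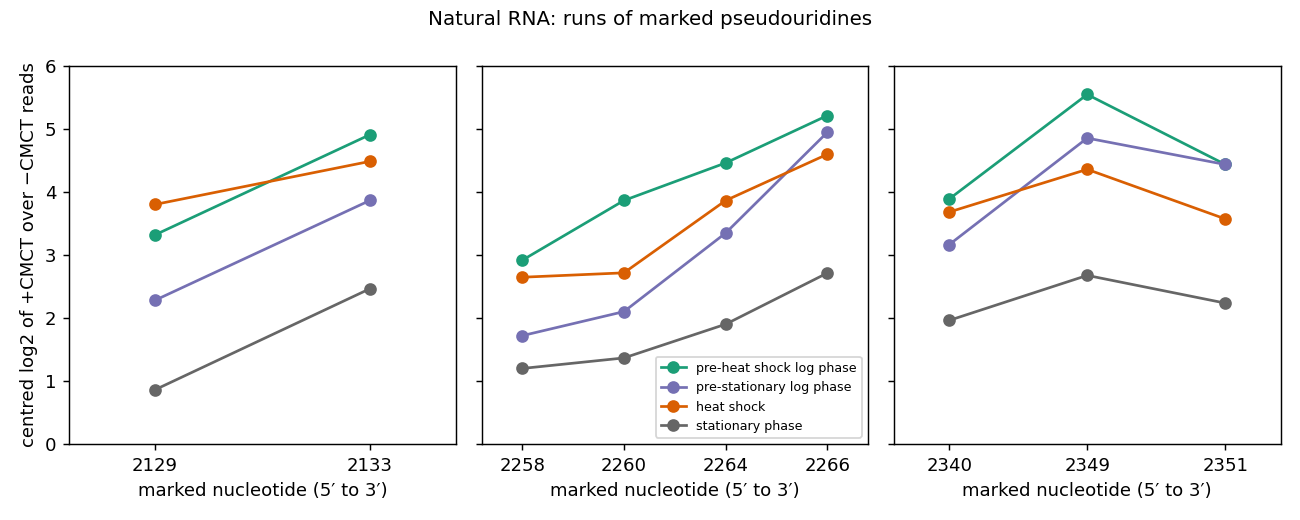
Lines join the centred log2 ratios of +CMCT to −CMCT reads in natural RNA (vertical axis) of the marked nucleotides within each of 3 runs (horizontal axis, 5′ to 3′), 1 line for each experiment. In the first 2 runs every line rises towards the 3′ end, and in the third it rises to nt 2349 and falls to nt 2351.

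The nucleotides between the members of a run stayed below them in 11 of 12 combinations of run and experiment. Between nt 2129 and 2133 the highest of 3 nucleotides had a centred ratio of 1.44, 0.91, 1.5 and 0.41, against 3.32, 2.28, 3.80 and 0.86 at the lower marked one. In the helix 69 run the exception was nt 2262 in stationary phase, with 1.85 against 1.20 at nt 2258. The runs took different shares of the reads. Helix 69 held 7.44%, 3.83%, 5.03% and 1.93% of the segment reads in the natural +CMCT libraries, against 0.620%, 0.720%, 0.605% and 0.702% in the natural −CMCT libraries. The run from nt 2340 to 2351 held 6.40%, 3.76%, 3.79% and 1.67% with CMCT, against 0.367%, 0.282%, 0.316% and 0.399% without it. The pair at nt 2129 and 2133 held 3.80%, 0.551%, 2.68% and 0.381% with CMCT, against 0.225%, 0.0486%, 0.159% and 0.0997% without it, so its share with CMCT was lowest in the 2 experiments on the pre-stationary culture.

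In pre-heat shock log phase and heat shock, median centred ratios 1 nt away exceeded the upper quartile of the unmarked nucleotides of the segment. On the 3′ side this held in pre-stationary log phase too, but few of these nucleotides were called after CMCT. That quartile was 0.59, 0.80, 0.50 and 0.71. The median centred ratio of the 12 nucleotides 1 nt 5′ of a marked one was 1.16, 0.22, 1.47 and 0.01, and that of the 12 nucleotides 1 nt 3′ was 1.13, 1.24, 0.87 and 0.28. At 2 nt the medians were −0.12, 0.20, 0.34 and −0.78 on the 5′ side and 0.60, 0.71, −0.14 and 0.49 on the 3′ side (n = 9 each). Of the 21 distinct adjacent nucleotides, 4 were called as higher and 2 as lower after CMCT in natural RNA. The highest was nt 2192, 3′ of nt 2191, with 131, 619, 124 and 411 natural +CMCT reads, against 11, 47, 14 and 16 natural −CMCT reads. Its fitted log2 change was 2.86 (SE 0.38, adjusted p = 3.0e-10), above that of 4 marked nucleotides, and it was the only adjacent nucleotide among the 12 highest ratios of any experiment.

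Stretches on the 5′ side of the runs had lower ratios than those on the 3′ side. Within 25 nt, the median centred ratio of unmarked nucleotides 5′ of the helix 69 run was −1.74, −1.69, −1.95 and −1.97, against −0.29, −0.85, −0.15 and −0.65 on its 3′ side. Of 5 runs and single sites with at least 23 unmarked nucleotides on each side, the 5′ side was lower at 5, 4, 4 and 4. The 23 nucleotides 3′ of nt 2314 are also those 5′ of nt 2340, so these 5 cases are not separate. At nt 2416, which has 3 on its 3′ side, the 5′ side was lower in 4 of 4 experiments. The lowest ratios of the whole segment lay in the stretch before helix 69 in every experiment, at nt 2236, 2249, 2235 and 2237. Over the segment, unmarked nucleotides before nt 2129 had a median of −0.08, 0.23, −0.00 and 0.34 (n = 677), and those after it −0.50, −0.43, −0.63 and −0.79 (n = 260).

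The unmarked nucleotides with the largest fitted changes overlapped the lowest of the marked ones. In single experiments 11, 4, 9 and 1 of the 12 marked nucleotides exceeded the highest unmarked ratio of the segment. The 5 with the largest fold among those called as higher in natural RNA were nt 1930 (log2 2.35, SE 0.55), nt 1924 (2.16, SE 0.41), nt 1884 (1.90, SE 0.42), nt 1694 (1.87, SE 0.35) and nt 2202 (1.81, SE 0.43). Nt 1930 lay above the marked nt 2260 (2.31), 2314 (2.19) and 2258 (1.84). Without pre-heat shock log phase, and likewise without heat shock, nt 1930, 1884, 1694 and 2202 lost their calls (adjusted p between 0.0760 and 0.361), and nt 1930 did without pre-stationary log phase too (adjusted p = 0.137). With DESeq2 nt 1930, 1884 and 2202 were not called (adjusted p = 0.329, 0.0520 and 0.190). Without the block, none of these 5 was called, nor was nt 2192 (adjusted p of at least 0.938). Nt 1930 had 15, 116, 30 and 84 natural +CMCT reads, against 3, 6, 7 and 9 natural −CMCT reads, and nt 1924 had 41, 470, 60 and 288, against 12, 29, 13 and 27. Both had most +CMCT reads in the 2 experiments on the pre-stationary culture. Nt 1694 had 150, 287, 267 and 269 natural +CMCT reads, against 28, 56, 43 and 32 natural −CMCT reads. Nt 1458, with the third highest mean centred ratio among the unmarked (2.53 ± 1.37, SD over both log phase experiments and heat shock), was not called (adjusted p = 0.209) and owed its mean to pre-stationary log phase, with 24 reads against 0. The base at these positions was not read here, so none can be called a uridine or a candidate pseudouridine.

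Heat shock and stationary phase were compared with log phase by the difference of the CMCT ratios. At the marked nucleotides, the centred ratio in heat shock lay below both log phase values at 4 (nt 2266, 2314, 2349 and 2351), above both at 1 (nt 2129) and between them at the other 7, where 28.6% and 30.7% of all 18S and 25S nucleotides lay below and above both. In stationary phase it lay below both log phase values at 11 of 12, against 36.8% of all 18S and 25S nucleotides and 29.7% of the unmarked ones of the segment, and at 30 of the 31 marked nucleotides outside the segment. The study found known pseudouridines less enriched in its stationary phase libraries, called this lower technical quality and set these libraries aside. The main fits of the CMCT ratios in natural and IVT RNA left them out too. The part of library quality in the lower ratios was not tested. The difference of stationary phase from the log phase of its own culture had a median of −1.41 and ran from −2.25 at nt 2314 to 0.07 at nt 2416. For heat shock against its own culture the median was −0.51, from −1.19 at nt 2349 to 0.48 at nt 2129. Both log phase experiments themselves differed by a median of 0.98 at the 12, more than heat shock differed from its own culture (a median of 0.54 without regard to sign).

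edgeR called 0 of 542566 positions (0%) for either condition against log phase, with 1 experiment in each condition and the spread taken from the log phase experiments. Of the 12, 0 had an unadjusted p under 0.05 in either comparison, where over all positions 939 were higher and 1783 lower in heat shock and 4268 higher and 1485 lower in stationary phase at an unadjusted p under 0.05. The fitted log2 differences at the 12 had a median of −0.48 (median SE 0.83) in heat shock and −0.96 (median SE 0.87) in stationary phase. With such SEs a loss of a few fold could not be told from the spread. The 937 unmarked nucleotides of the segment had medians of −0.47 in heat shock and 1.11 in stationary phase in the same fits. The median of the 12 was thus close to theirs in heat shock and below theirs in stationary phase. In simulated data the heat shock term of this fit called 0 of 50 positions raised by a log2 of 2 and 19 of 50 raised by 4. The stationary phase −CMCT library had 42138 segment reads, the fewest of the natural libraries, and its +CMCT library 171009, the most. The part of this depth gap in the lower ratios was not tested.

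Stops that need no CMCT were led by nt 2142, where yeast 25S rRNA carries an N1-methyladenosine made by Bmt2, a modification on the pairing face of the base that blocks reverse transcriptase. Nt 2142 had 6194, 3712, 11990 and 2794 natural −CMCT reads, against 6, 24, 47 and 110 IVT −CMCT reads. This was 8.78%, 3.60%, 8.29% and 6.63% of the segment reads in natural RNA and 1.22%, 2.14%, 3.77% and 3.67% in IVT RNA. It was the first of all 970 nucleotides in 3 natural −CMCT libraries and the third in pre-stationary log phase, but also the first in the IVT −CMCT libraries of heat shock and stationary phase. The shares in natural and IVT RNA overlapped, between the pre-stationary log phase natural library and the heat shock and stationary phase IVT libraries (6.83% ± 2.34 against 2.70% ± 1.24, SD, n = 4 each, two-sided exact permutation test, p = 0.0857, adjusted to 0.129). Within experiments the share was higher in natural RNA in 4 of 4.

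The stop at nt 2142 was not higher with CMCT. It took 7.99%, 3.21%, 6.30% and 2.21% of the segment reads in the natural +CMCT libraries, lower than without CMCT in every experiment. The groups overlapped, with p = 0.229 in the exact permutation test (adjusted to 0.257), which did not use the pairing within experiments. The fitted log2 change of nt 2142 after CMCT was −0.73 (SE 0.31, adjusted p = 0.373). This was close to the median of −0.70 over the unmarked nucleotides of the segment in the same fit. The centred ratio of nt 2142 was 0.08, −0.28, −0.21 and −1.52. Reads fell off steeply from nt 2142 to the nucleotides next to it. Nt 2141 had 764, 351, 1479 and 228 natural −CMCT reads, nt 2143 had 145, 113, 224 and 123, and nt 2144 had 64, 192, 82 and 68. Nt 2139, 2140 and 2145 had at most 46 in any natural −CMCT library. They rose again at nt 2146, with 431, 3006, 664 and 413. The 7 nucleotides from nt 2139 to 2145 together held 10.3%, 4.34%, 9.61% and 7.76% of the segment reads in natural RNA and 1.83%, 2.32%, 4.73% and 4.07% in IVT RNA.

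**Figure D5:**
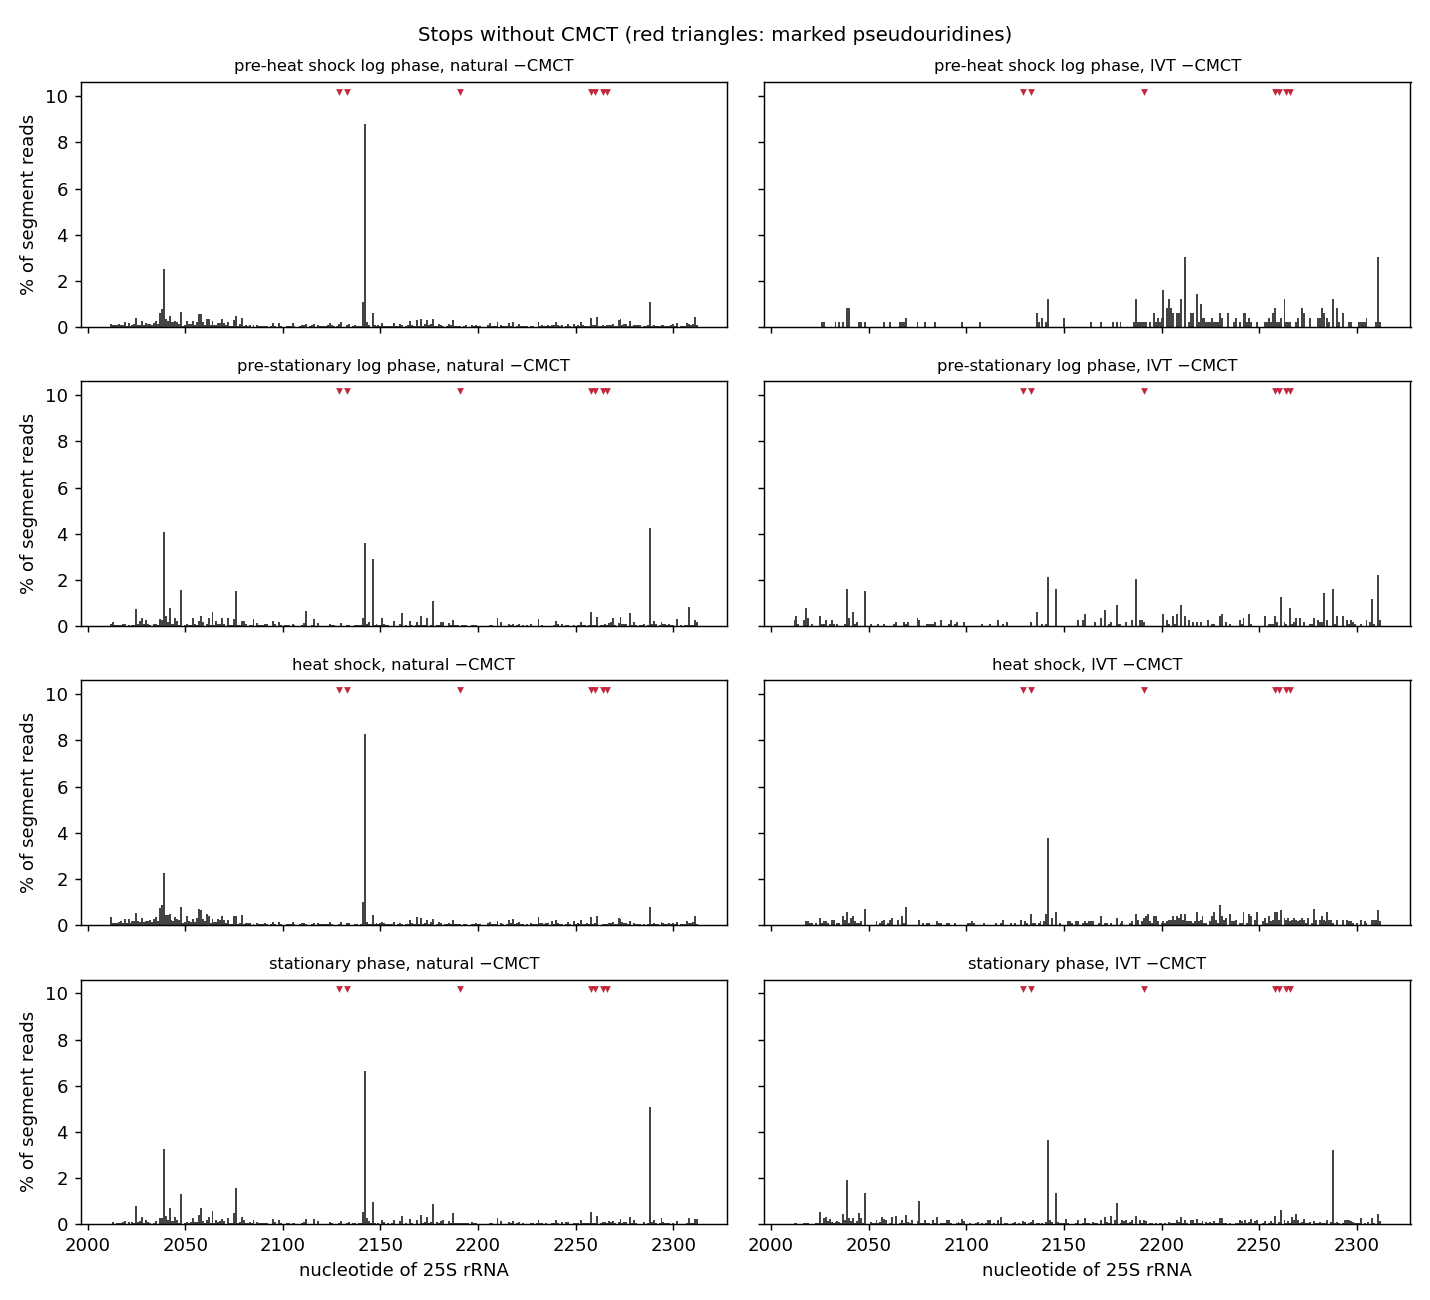
Bars give the percentage of segment reads at each nucleotide (vertical axis) in a window around nt 2142 (horizontal axis, nt of 25S rRNA) in the natural −CMCT libraries (left) and the IVT −CMCT libraries (right) of the 4 experiments, with red triangles at marked pseudouridines. The bar at nt 2142 reaches 3.60% to 8.78% on the left and 1.22% to 3.77% on the right. Among the marked nucleotides on the left the bar at nt 2258 is the highest, with 0.389%, 0.598%, 0.358% and 0.517%.

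edgeR compared the natural and IVT −CMCT libraries over the 5196 nucleotides of 18S and 25S rRNA, with the rRNA reads of each library as its size. It called 743 (14.3%) as higher and 472 (9.08%) as lower in natural RNA. In the segment 222 of 970 were called as higher and 13 as lower, none of them marked, and the median over the unmarked was 1.76. These counts turn on the scaling. The segment took 14.2% to 17.0% of the rRNA reads in natural −CMCT libraries and 3.60% to 6.63% in IVT −CMCT libraries. With the segment reads as library size, 6 nucleotides of the segment were higher and 55 lower, among them the marked nt 2191 and 2266, where over 18S and 25S rRNA 0.616% were higher and 36.9% lower. With TMM 455 were higher and 6 lower. Nt 2142 was higher in natural RNA by a log2 of 2.86 (SE 0.76, adjusted p = 0.00686) with rRNA reads as library size and by 1.32 (SE 0.71, adjusted p = 0.144) with segment reads, so its direction held and its call did not. With the experiment as a block and rRNA reads as library size it was 2.90 (SE 0.49, adjusted p = 2.2e-07). The call was also lost without pre-heat shock log phase (2.48, SE 1.02, adjusted p = 0.0979), which left 58 nucleotides of the segment higher and 3 lower, while without heat shock 128 were higher and 7 lower and without stationary phase 76 were higher and 17 lower.

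The 5 nucleotides with the largest fold among those called had 0 reads in all 4 IVT −CMCT libraries and therefore only a bound. Against a floor of 3 reads over the group and per rRNA read, nt 2010 was at least 10.5-fold higher in natural RNA (560 against 0 reads), nt 1513 at least 9.33-fold (499 against 0), nt 2016 at least 6.92-fold (370 against 0), nt 1851 at least 5.42-fold (290 against 0) and nt 2251 at least 5.27-fold (282 against 0). Per segment read these bounds were 3.04-fold, 2.71-fold, 2.01-fold, 1.57-fold and 1.53-fold in the same order. All 5 were also called with segment reads as library size, while nt 1851 and 2251 were not without stationary phase (adjusted p = 0.0623 and 0.0590). In the IVT +CMCT libraries, however, all 5 had reads, such as 4, 0, 2 and 5 at nt 2010 and 0, 4, 3 and 4 at nt 2251. A choice by largest fold favours nucleotides with 0 IVT −CMCT reads, so the bounds do not show that IVT RNA lacks these stops. At nt 2010 the natural −CMCT reads were 110, 102, 314 and 34, and the change with CMCT was a log2 of 0.12 (SE 0.32, adjusted p = 0.988).

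Other strong stops without CMCT differed in strength between experiments. Nt 2288, at the ribose-methylated Gm2288, had 777, 4375, 1127 and 2131 natural −CMCT reads, and nt 2146 had 431, 3006, 664 and 413. Nt 2288 led the segment in pre-stationary log phase with more reads than nt 2142, and was 13.1 to 123 times the median of the segment over the 4 experiments. Its IVT −CMCT reads were 6, 18, 1 and 96, and the natural over IVT log2 difference of 2.64 (SE 0.80, adjusted p = 0.0159) became 0.84 (SE 0.76, adjusted p = 0.410) with segment reads as library size. Nt 2039 had 1772, 4212, 3287 and 1366 natural −CMCT reads, against 4, 18, 7 and 58 IVT −CMCT reads, and was among the 3 highest of every natural −CMCT library. The IVT −CMCT library of stationary phase had the same 3 leading nucleotides as its natural counterpart, nt 2142, 2288 and 2039, and its log2 reads over the 970 nucleotides correlated with those of natural RNA at r = 0.69, against 0.15, 0.45 and 0.35 in the other 3 experiments.

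At the other known modified nucleotides of the segment the stops without CMCT were weaker than at nt 2142 and nt 2288. 5-Methylcytidine at mC2278, made by Rcm1, had 173, 596, 279 and 124 natural −CMCT reads, 3.24 to 16.8 times the median of the segment. Um2417, next to the pseudouridine at nt 2416, had 192, 74, 442 and 68, or 2.08 to 5.14 times the median. The ribose methylations Um1888, Cm2197, Am2220, Am2256, Am2280, Am2281, Cm2337, Um2347 and Gm2395 had between 6 and 163 reads in any natural −CMCT library, from 0.163 to 4.59 times the median. Um2347 differed from them in CMCT-dependent stops, with a log2 change of 1.63 (SE 0.34, adjusted p = 0.000572) 2 nt before the pseudouridine at nt 2349.

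Set beside the rest of the rRNA, the segment held more marked nucleotides per length, and their ratios lay between those of the other parts. It has 1.24 per 100 nt, against 0.759 in 25S rRNA before it, 0.717 after it and 0.722 in 18S rRNA. The median centred ratio of its marked nucleotides was 4.16, 3.26, 3.74 and 2.10, against 4.92, 3.72, 4.84 and 2.94 for the 13 of 18S rRNA, 3.98, 2.83, 3.19 and 2.00 for the 11 of 25S rRNA before it, and 4.56, 4.10, 4.33 and 2.37 for the 7 after it. Pre-heat shock log phase had the highest and stationary phase the lowest median in each of them. No test of these differences was made.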

How the data were processed

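PSI-seq reads of 16 yeast libraries were analysed from a single table. Per the submitters' processing notes and the methods, the authors aligned reads to sacCer3 with Bowtie 0.12.5, gave a read that fits several loci to a random one of them, combined the rDNA copies, and deposited raw counts of reads at each position, not normalized and without strand or base. The nucleotide was taken as 455183 minus the position, and the deposited position lies 1 base beside the RDN25-1 annotation of RefSeq. No sequence was used. The columns of both log phase experiments carry the name of the later culture and were not numbered here. Libraries held 3925245 to 25759455 listed reads, of which 5.25% to 11.5% in natural and 0.259% to 0.751% in IVT libraries were on 18S and 25S rRNA.

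Ratios took 1 added read. edgeR 4.0.16 (quasi-likelihood in its legacy form, TMM, at least 10 reads over the libraries of a fit, Benjamini-Hochberg over all positions, where positions with identical counts in all 16 libraries, outside the first listed copy of 18S and 25S rRNA, entered once, adjusted p under 0.05) tested the ratios, and the fit of −CMCT libraries used rRNA reads as library size. The block is the experiment, since the methods split each RNA into a CMCT and a mock part. Every fit was tested on simulated data of positions with at least 50 reads over its libraries, above the minimum of 10 reads. In these data 50 positions were raised by each of a log2 of 2, 3, 4 and 5. Of these the natural fit called 13, 47, 50 and 50, the IVT fit 0, 3, 25 and 40, and the natural against IVT fit 0, 3, 9 and 19. The heat shock term of the growth fit called 0, 7, 19 and 33, and the fit of −CMCT libraries 11, 41, 50 and 50. Only 1 marked nucleotide reached 50 reads in the IVT fit, so its simulated counts do not give the power at the others. In the natural against IVT fit natural reads count towards this minimum. Its simulated counts thus do not give the power at so few IVT reads either. DESeq2 1.42.0, other normalizations, read minimums, position sets and left-out experiments were alternatives. Log phase has 2 libraries of each kind and heat shock and stationary phase 1, so p-values measure the spread between experiments, of which each stress experiment shares a culture with a log phase one. The members and lists were chosen with earlier results of these data known.

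Named were all marked nucleotides, neighbours among the 12 highest ratios, the 5 unmarked ones with the largest fold past each test or with the highest mean ratio, nt 2142 with 3 on either side, and other modified nucleotides known from the literature. The strongest stops without CMCT and nt 2146 were added after their values were seen.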

Additional observations from a re-analysis of the deposited data

Results flagged for a closer look

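The share of segment reads on the 12 marked nucleotides was 7.60% in the IVT +CMCT library of pre-heat shock log phase, far above the other 3 IVT +CMCT libraries (2.88%, 3.25% and 3.06%). Its gap to the nearest of them exceeded Dixon's 95% critical value for 4 samples. Of 8 groups of 4 libraries examined in this way 1 stood out, and chance flags about 1 in 20 groups. The library had 104 reads on the 12 nucleotides, spread over all of them, with the most at nt 2191 (12.5%).

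Heat shock and stationary phase moved the centred ratio in opposite directions at 2 of the 12 marked nucleotides, each set against the log phase of its own culture. At nt 2129 the difference was 0.48 in heat shock and −1.42 in stationary phase, and at nt 2416 it was −0.19 in heat shock and 0.073 in stationary phase. The difference between the conditions was not tested at either, and there is 1 experiment in each. At the other 10 both differences were negative.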

How the results depend on the processing

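Of the 12 marked nucleotides, 12 were called in natural RNA with library sizes alone, with DESeq2's size factors, with DESeq2 itself, at minimums of 3 and 50 reads, over 18S and 25S nucleotides alone, over every listed position and with all 4 experiments. Over 18S and 25S nucleotides alone, 738 of 5145 were called as higher, among them 115 nucleotides of the segment that are not marked. Such calls in the segment numbered 20 in the main fit and 11 to 26 in the other settings of this list. Leaving out an experiment gave 10 to 12, and the bias-adjusted quasi-likelihood, chosen after seeing the data, gave 0. Without the block of the experiment 8 were called (nt 2129, 2258, 2260 and 2314 were not), and the difference between natural and IVT RNA had 0 calls without the block, against 1 with it. That difference also had 0 calls at a minimum of 3 reads, with the bias-adjusted test, with DESeq2 and with all 4 experiments, 0 to 2 with an experiment left out, and 4 over 18S and 25S nucleotides alone, where 24 of 5178 were called as higher. In IVT RNA every setting called 0, but only 1 of the 12 was tested at a minimum of 50 reads, 11 without pre-heat shock log phase and 9 without heat shock. For heat shock and stationary phase against log phase every setting that could be fitted called 0, and leaving out a log phase experiment leaves no residual degrees of freedom, so it gives no test.

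Of the 970 nucleotides, 235 were called without CMCT. The count was 461 with TMM (455 higher, 6 lower), 93 without stationary phase (76 higher, 17 lower), 61 with segment reads as library size, chosen after seeing the data (6 higher, 55 lower), 215 with the experiment as a replicate block, and 61 to 165 with an experiment left out. The median over all rRNA nucleotides was 0.27, against 0.89 with TMM and −1.37 with segment reads. With 10 reads added, 8 marked nucleotides were among the 12 highest ratios in pre-stationary log phase and 7 in stationary phase, and over positions with at least 10 reads 8 and 1 exceeded the score threshold. The counts below both log phase values, tried with 10 reads added and with centring on the segment after seeing the data, were 11 and 11 in stationary phase and 3 and 3 in heat shock. With segment reads the balance of higher and lower calls turned round, and the natural over IVT difference without CMCT at nt 2258, 2260, 2264, 2340 and 2416 lay below 0 (−0.15 at nt 2258, against 1.43 with rRNA reads), with no call under either. The cause of these shifts was not tested. Depth limits what can be detected in IVT RNA, with 13 to 61 −CMCT reads on the 12 nucleotides.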
